A study of Mus musculus with 2 samples.

Results

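Transcripts of 9 natural killer (NK)-type receptor genes, Klra5, Klre1, Klrd1, Klrk1, Klrc1, Klrb1c, Klrg1, Cd200r2 and Fcer1g, were followed in lymphocytes of the small intestine. They are 9 of the 31053 genes counted, and all 9 were found by symbol in both libraries. The genes were chosen by measured values of these same libraries, their levels in lymphocyte classes, and no record says which values decided. Their levels in the gates and the differences between gates are therefore given as a description, and nothing is read from how many of them were called.

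The tissue was proximal small intestine. The 2 APC mice, with genotype Villin-CreERT2 Apc fl/fl, had been given 2 mg tamoxifen 2 times with 24 h between the injections and sampled on day 4. The Villin promoter directs the tamoxifen-dependent Cre recombinase to the intestinal epithelium, so the lymphocytes themselves are not its target. Both mice carried the same alleles and received the same treatment, there was no control library, and every comparison is between cells of the same animals. Sorting on DAPI took out dead cells. The droplet chemistry was 10x 3′ v3, in which unique molecular identifiers (UMIs) count transcripts from their 3′ end.

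NK-type receptors let a lymphocyte read the surface of a neighbouring cell. Inhibitory members carry a motif in their own tail that recruits phosphatases such as Ptpn6 (SHP-1), whereas activating members have short tails and borrow the signalling motif of an adaptor, Fcer1g, Tyrobp (DAP12) or Hcst (DAP10). In the gut, many such receptors are found on intraepithelial T cells as well as on NK cells and other innate lymphoid cells.

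Of the 9 genes, Klra5 (Ly49E), Klrc1 (NKG2A) and Klrg1 were taken as inhibitory. Klrk1 (NKG2D), Klrb1c (NK1.1) and Cd200r2 were taken as activating. Klrd1 (CD94) is the partner chain of Klrc1 and other NKG2 proteins, and Klre1 pairs with Klri1 or Klri2, so neither has a direction of its own. Fcer1g is the common gamma chain of Fc receptors and an adaptor of activating receptors.

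Of these genes, 7 lie on chromosome 6 (GRCm38, GENCODE M21), and 6 of those lie within 1.14 Mb, from Klrb1c at chr6:128778485-128789215 to Klra5 at chr6:129898996-129917650. Klre1 (chr6:129577905-129585827), Klrd1 (chr6:129591782-129598775), Klrk1 (chr6:129610323-129623864) and Klrc1 (chr6:129666015-129678973) lie between these. Klrg1 stands apart at chr6:122270596-122282882. Fcer1g is at chr1:171229572-171234365 and Cd200r2 at chr16:44867097-44915840. Genes of the Klra, Klrb1, Klrc and Cd200r families resemble each other, so counts of single family members are uncertain where reads could fit several.

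The 150 bases before the RefSeq start (GRCm38.p6) are shown for the 6 genes with an entry whose sums were called different between gates. Of the 9 genes, 7 had an entry. Each is written 5′ to 3′ in the direction of the gene. Capitals mark matches to 2 motifs searched on both strands. The RUNX motif was TGTGGT, which reads on the opposite strand as ACCACA. The T-box motif was GGTGTGA, which reads on the opposite strand as TCACACC. The motifs do not overlap in these windows.
Klra5 (chr6:129913225-129913374, minus strand): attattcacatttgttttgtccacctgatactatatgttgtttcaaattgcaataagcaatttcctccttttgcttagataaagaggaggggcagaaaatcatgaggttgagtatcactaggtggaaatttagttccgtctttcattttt
Cd200r2 (chr16:44866947-44867096, plus strand): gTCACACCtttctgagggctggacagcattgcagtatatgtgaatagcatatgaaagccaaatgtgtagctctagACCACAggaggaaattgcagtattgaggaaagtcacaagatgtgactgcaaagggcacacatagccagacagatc
Fcer1g (chr1:171234350-171234499, minus strand): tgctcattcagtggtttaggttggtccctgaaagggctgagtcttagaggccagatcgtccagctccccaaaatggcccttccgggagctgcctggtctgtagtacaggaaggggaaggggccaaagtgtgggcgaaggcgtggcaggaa
Klrk1 (chr6:129623865-129624014, minus strand): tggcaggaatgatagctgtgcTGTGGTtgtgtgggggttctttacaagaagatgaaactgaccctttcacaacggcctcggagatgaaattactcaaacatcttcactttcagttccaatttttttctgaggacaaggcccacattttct
Klrc1 (chr6:129678974-129679123, minus strand): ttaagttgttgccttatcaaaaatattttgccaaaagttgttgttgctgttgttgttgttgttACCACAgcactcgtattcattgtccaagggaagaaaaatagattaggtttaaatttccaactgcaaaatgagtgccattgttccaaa
Klrb1c (chr6:128788642-128788791, minus strand): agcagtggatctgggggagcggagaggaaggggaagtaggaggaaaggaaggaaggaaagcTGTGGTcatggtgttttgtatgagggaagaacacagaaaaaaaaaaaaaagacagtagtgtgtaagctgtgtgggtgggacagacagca
The RUNX letters were present in 4 of the 7 genes (Klrb1c, Klrk1, Klrc1 and Cd200r2) and in 8.40% of 32851 windows of the same length. The T-box letters were present in Cd200r2 alone of the 7 and in 1.92% of all windows. These are matches of letters and were not tested as binding sites. The windows of Klra5, Klrb1c and Fcer1g lie wholly or partly inside the GENCODE genes given above, since their RefSeq starts differ.

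The libraries held 9645 and 8800 barcodes with 85670711 and 38716743 UMIs in mouse 1 and mouse 2, and 7941 and 6957 cells were kept. A cell of the Cd8b1 gate had Cd3 and Cd8b1 UMIs and none of Trdc or Cd4 (479 and 292 cells). The Trdc gate (1284 and 3072 cells) and the Cd4 gate (100 and 80 cells) were defined in the same way by Trdc and by Cd4. The Cd3-0 gate (122 and 75 cells) held Ptprc-positive cells with no Cd3 or Cd8b1 UMI and at least 2 of 20 lymphoid markers. Cells with Trdc or Cd4 UMIs were not left out of it. No member was used to define a gate. The 2 libraries shared 24 barcodes, of which 2 and 13 fell in the gates.

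The labels of the gates were checked against genes that they did not use, of which Trac, Trbc2 and Cd8a are given. The gamma-chain genes Trgc1, Trgc2 and Trgc4, as well as Cd28 and Cd5, were also listed for these checks, and their values are not given. In the Trdc gate, Trac was seen in 50.5% and 49.3% of cells and Trbc2 in 80.5% and 78.1%, while in B cells Trac was seen in 0.602% and 1.41%. These cells are therefore called Trdc-gated, and how many of them are gamma-delta T cells was not settled. Cd8a was seen in 85.0% and 85.9% of them. In the Cd3-0 gate Trbc2 was seen in 47.5% and 42.7% of cells. Only 38 of its 122 and 22 of its 75 cells had no UMI of Trac, Trbc1, Trbc2 or Trdc. Ncr1 of NK and innate lymphoid cells was seen in 22.95% and 25.3%. It is among the lymphoid markers that define this gate, so its share does not check the label. Plasma-cell transcripts were seen in every gate, with Igkc in 98.6% to 100% of cells of the 4 gates. Igkc is part of the immunoglobulin UMIs by which the gates left cells out.

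The Cd4 gate differed between the mice. Cd8a was seen in 14% of its cells in mouse 1 and in 37.5% in mouse 2. In mouse 2, all 20 Klra5, 29 Klre1 and 12 Cd200r2 UMIs, 80 of 81 Klrd1 UMIs and 148 of 153 Fcer1g UMIs of the gate lay in its 30 cells with Cd8a. Cd4-gated cells without Cd8a had 0 UMIs of Klra5, Klre1 and Cd200r2 in both mice. What these Cd8a-positive cells are was not tested, and the levels of the Cd4 gate are given first with them and then without them.

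Klra5, the gene of an inhibitory Ly49 receptor, was highest in the Trdc gate among the 4 gates. Levels are given as CPM, the UMIs of a gene per 1000000 UMIs of the gate. Its level there was 263 CPM in mouse 1 and 214 in mouse 2, against 13.8 and 33.5 in the Cd8b1 gate, 0 and 79.4 in the Cd4 gate, and 13.5 and 3.52 in the Cd3-0 gate. Both mice of the Trdc gate stood above all other sums, and the Cd4 gate, with 1 low and 1 high sum, overlapped the Cd8b1 and Cd3-0 gates. Klra5 was seen in 26.2% and 21.6% of Trdc-gated cells and in 2.51% and 4.45% of Cd8b1-gated cells. The fitted difference from the Cd8b1 gate was 3.34 ± 0.63 on the log2 scale (SE, n = 2 mice), and the log2 ratios within the mice were 4.12 and 2.55.

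Klrc1, which with Klrd1 forms the inhibitory receptor for Qa-1, followed another order. Its level was 30.02 and 77.4 CPM in the Cd3-0 gate, 4.19 and 3.35 in the Cd8b1 gate and 5.45 and 5.70 in the Trdc gate. No Klrc1 UMI was counted in the Cd4 gate, which allows up to 3% and 3.75% of cells with a UMI and sets no limit on cells that express the gene. The Cd3-0 sums lay above all T-cell sums, and the counting intervals of the Cd8b1 and Trdc gates overlapped.

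Klrg1, an inhibitory receptor for cadherins, was low in all gates. Its level was 2.39 and 4.46 CPM in the Cd8b1 gate, 2.397 and 3.07 in the Trdc gate, 2.41 and 23.8 in the Cd4 gate and 12.0 and 31.7 in the Cd3-0 gate. The Cd3-0 and Cd4 gates overlapped. In the Cd4 gate of mouse 2 all 6 Klrg1 UMIs lay in 2 cells without Cd8a.

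Klrk1, the activating receptor for stress-induced ligands, was highest in the Cd3-0 gate. It was at 180 and 225 CPM there, against 23.9 and 32.3 in the Cd8b1 gate, 17.6 and 14.02 in the Trdc gate and 9.65 and 31.8 in the Cd4 gate. It was seen in 32.8% and 34.7% of Cd3-0 cells and in no more than 5.14% of cells of any T-cell gate. The Cd3-0 sums did not overlap the others, and the Trdc sums lay below the Cd8b1 sums. In the Cd3-0 gate the fitted difference from the mean of the 3 T-cell gates was 3.28 ± 0.22 on the log2 scale (SE, n = 2 mice).

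Klrb1c, the NK1.1 antigen, was seen in 7.38% and 9.33% of Cd3-0 cells at 19.5 and 31.7 CPM. In the T-cell gates it did not exceed 2.41 CPM, which was 1 UMI in the Cd4 gate of mouse 1. The counts were 13 and 9 UMIs in the Cd3-0 gate and 2 and 6 in the Trdc gate, whose cells were far more numerous.

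Cd200r2, an activating relative of the CD200 receptor, shared the order of Klra5. It was at 193 and 199 CPM in the Trdc gate, 14.4 and 46.8 in the Cd8b1 gate, 2.41 and 47.7 in the Cd4 gate and 6.004 and 10.6 in the Cd3-0 gate. Only the Trdc sums stood clear of all others. The fitted difference between the Trdc and Cd8b1 gates was 2.71 ± 0.48 on the log2 scale (SE, n = 2 mice).

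**Figure D1:**
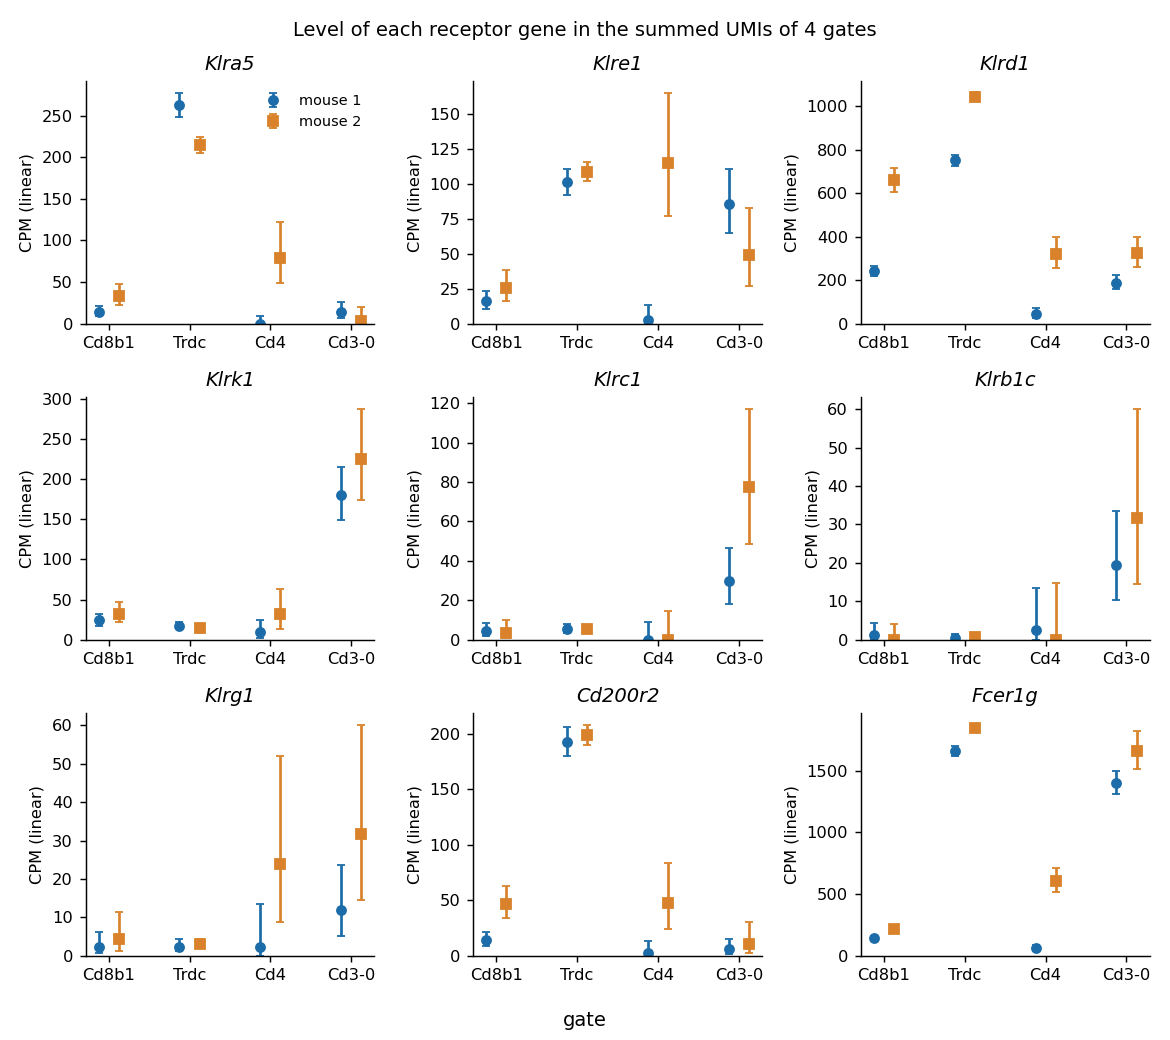
Level of each receptor gene (CPM of summed UMIs, linear axis) in the Cd8b1, Trdc, Cd4 and Cd3-0 gates, with blue circles for mouse 1 and orange squares for mouse 2 and bars for exact 95% Poisson intervals, which cover counting error only. Klra5 (263 and 214 CPM) and Cd200r2 (193 and 199 CPM) peak in the Trdc gate, Klrk1 (180 and 225 CPM) and Klrc1 (30.02 and 77.4 CPM) in the Cd3-0 gate, and Fcer1g is high in both.

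Klrd1, the common partner chain of NKG2 receptors, was present in all gates. It was at 751 and 1044 CPM in the Trdc gate, 240 and 659 in the Cd8b1 gate, 189 and 324 in the Cd3-0 gate, and 45.9 and 322 in the Cd4 gate. Trdc sums were the highest in both mice, and the lower 3 gates overlapped. Klrd1 was seen in 77.5% and 80.3% of Trdc-gated cells and 37.8% and 55.8% of Cd8b1-gated cells.

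Klre1 was at 101 and 109 CPM in the Trdc gate, 16.2 and 25.7 in the Cd8b1 gate and 85.6 and 49.3 in the Cd3-0 gate. In the Cd4 gate it was at 2.41 and 115 CPM, and overlapped all other gates for that reason. It was seen in 11.5% and 9.33% of Cd3-0 cells, and Klra5 in 3.28% and 1.33%.

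Fcer1g, the adaptor, was nearly as high in the Cd3-0 gate (1403 and 1664 CPM) as in the Trdc gate (1661 and 1846 CPM), and these gates overlapped. It was at 143 and 221 CPM in the Cd8b1 gate and at 60.3 and 608 CPM in the Cd4 gate. Fcer1g was seen in 83.5% and 84.5% of Trdc-gated cells, 79.5% and 84.0% of Cd3-0 cells, and 9.39% and 16.1% of Cd8b1-gated cells. It was also seen in 93.7% and 95.9% of macrophages, which are known to express it.

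Without the cells with Cd8a, the Cd4 gate (86 and 50 cells) had lower levels of Klra5, Klre1, Cd200r2, Klrd1 and Fcer1g in both mice, or stayed at 0. Klrd1 was at 30.7 and 6.60 CPM and Fcer1g at 13.9 and 33.0 CPM, both below all sums of the other gates. Klra5, Klre1, Cd200r2 and Klrc1 were at 0 in both mice. Klrk1 (8.36 and 46.2 CPM), Klrg1 (2.79 and 39.6 CPM) and Klrb1c (2.79 and 0 CPM) rested on 7 UMIs or fewer in each mouse.

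Sums of the 4 gates in both mice were fitted across 8454 genes with edgeR's quasi-likelihood test, and a gene was called at a Benjamini-Hochberg adjusted p under 0.05. Between the Trdc and Cd8b1 gates, 3 of the 9 genes were called higher (Klra5, Cd200r2 and Fcer1g) and 0 lower, beside 1.53% and 1.09% of all genes. Of the genes called, 58.4% were higher, against 46.8% with DESeq2. The median of the 9 log2 differences was 0.91, and that of all genes was -0.01. With the mouse as a block, 5 were called higher (Klre1 and Klrd1 in addition) and 1 lower (Klrk1), since sums of 1 mouse come from 1 animal. With DESeq2 only Fcer1g was called, and without the top 5% of cells by UMIs Fcer1g was not. When cells of other lineages were kept (8 tested), 0 were called, with 1515 and 3162 Trdc-gated and 594 and 314 Cd8b1-gated cells. When cells with other T-cell receptor transcripts were left out (6 tested), 0 were called. That setting left 76 and 192 Trdc-gated cells and did not change the Cd8b1 gate, so it compares a much smaller set of cells.

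Between the Cd8b1 and Cd4 gates, 0 of the 9 were called in either direction, beside 0.189% of all genes called higher and 1.14% lower. At an unadjusted p under 0.05, 908 of all genes differed, and DESeq2 called 0 of the 9. Klrd1 was called higher in the Cd8b1 gate with the mouse as a block, with gate genes at 2 UMIs or more, and without a filter on low counts, where Klre1 and Fcer1g were called lower. Leaving out the Cd4-gated cells with Cd8a, Klrd1 (log2 difference 4.23 ± 0.59, SE) and Fcer1g (3.05 ± 0.32, SE) were called higher in the Cd8b1 gate. Fcer1g lay on the other side of 0 with these cells kept (-0.84 ± 0.67, SE).

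Between the Cd3-0 gate and the mean of the 3 T-cell gates, 4 of the 9 were called higher (Klrk1, Klrc1, Klrb1c and Fcer1g), beside 12.8% of all genes. Cd200r2 was called lower, beside 6.88% of all genes. The call of Cd200r2 was lost without the Cd4-gated cells with Cd8a, where its log2 difference moved from -2.70 to 0.16. That setting left 0 Cd200r2 UMIs in the Cd4 gate of both mice. This lowers the mean of the T-cell log2 levels, so 0.16 gives no size. With DESeq2 neither Fcer1g nor Cd200r2 was called. With other lineages kept (770 and 293 cells in the Cd3-0 gate), 1 was called higher (Klrk1) and 2 lower (Klra5 and Cd200r2). Without other T-cell receptor transcripts, where 38 and 22 Cd3-0 cells remained and 6 genes were tested, 1 was called higher (Klrk1) and 1 lower (Klrd1). With the mouse as a block, Klrg1 was called higher and Klra5 lower in addition. The T-cell mean hides that Fcer1g in the Cd3-0 gate overlapped the Trdc gate. Fewer transcripts of a gene in a sum can mean fewer cells with it or less per cell, so shares of cells are given next.

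To compare shares at 1 depth, each cell was thinned to 1500 UMIs, which left out 40 and 248 cells of the Trdc gate and at most 18 of any other gate. Klra5 was then seen in 19.9% and 17.3% of Trdc-gated cells, Cd200r2 in 22.2% and 24.4%, Klre1 in 10.9% and 11.8%, Klrd1 in 60.2% and 69.4%, and Fcer1g in 76.7% and 79.2%. In the Cd8b1 gate the same shares were 1.49% and 2.19%, 1.49% and 6.93%, 1.71% and 3.28%, 22.4% and 43.1%, and 7.25% and 12.4%. B cells, which should lack these receptors, gave 0.304% and 0% for Klra5, 1.22% and 1.49% for Klrd1 and 3.65% and 1.49% for Fcer1g at the same depth. Median depths before thinning were 3355 and 2646 UMIs in the Trdc gate and 3370.5 and 2338 in B cells.

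Among Trdc-gated cells, those with Cd8a had more of these receptors than those without. At 1500 UMIs, Klra5 was seen in 22.5% and 18.3% of cells with Cd8a and in 4.49% and 10.5% of cells without it. For Cd200r2 the shares were 24.6% and 26.7% against 7.87% and 9.19%, and for Klre1 12.3% and 13.1% against 2.81% and 3.51%. Klrd1 (63.6% and 72.3% against 39.9% and 50%) and Fcer1g (79.5% and 81.7% against 60.1% and 62.2%) also lay higher in cells with Cd8a. Klrk1 ran the other way, with 1.69% and 1.71% of cells with Cd8a and 5.62% and 3.51% of cells without it. Each of these 6 directions was the same in both mice, and no test was run on shares.

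**Figure D2:**
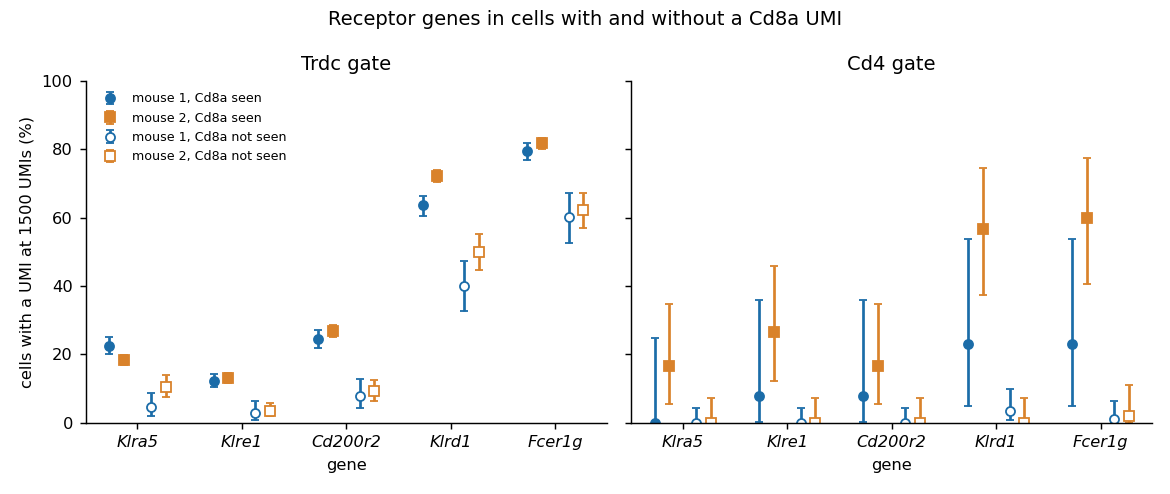
Share of cells with a UMI of 5 receptor genes after thinning to 1500 UMIs (percent), in the Trdc gate (left) and the Cd4 gate (right), with filled symbols for cells with a Cd8a UMI and open symbols for cells without, circles for mouse 1, squares for mouse 2 and exact 95% binomial intervals. In the Trdc gate cells with Cd8a lie higher for all 5 genes in both mice, and in the Cd4 gate Klra5, Klre1 and Cd200r2 are at 0 in cells without Cd8a.

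The Cd3-0 gate was not uniform. Its groups are first described without thinning. Cells with at least 2 type 1 markers (14 and 4 cells) all had Klrd1 UMIs, and 92.9% and 75.0% of them had Klrk1. Klre1 was seen in 71.4% and 75.0% of these cells and Klrc1 in 28.6% and 100%, whereas Klra5, Klrg1 and Cd200r2 were at 0 in both mice. In cells with type 2 markers (8 and 6 cells) Klrg1 was seen in 37.5% and 66.7% and Klrk1 in 0. In cells with type 3 markers (34 and 15 cells) Fcer1g was seen in all and Klrk1 in 23.5% and 26.7%. These groups are small, and the values describe them only.

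Co-detection was then measured within each whole gate at 1500 UMIs, without a split by Cd8a. Trdc-gated cells with and without Cd8a differed in Klra5, Cd200r2, Klre1, Fcer1g and Klrk1, as given above. Whether pooling these cells bears on the co-detection shares was not tested. In the Trdc gate, Klra5 was seen in 24.3% and 20.8% of cells with Fcer1g and in 5.52% and 4.25% of cells without it. Cd200r2 was seen in 25.8% and 28.2% of cells with Fcer1g and 10.3% and 10.2% without, and Klre1 in 12.5% and 14.1% against 5.86% and 3.23%. Klrk1 differed in the other direction, at 1.78% and 1.57% with Fcer1g and 3.79% and 3.40% without. These were 17 and 35 cells with Fcer1g and 11 and 20 without, and the exact intervals overlapped in both mice. The difference had 1 sign for Klra5, Cd200r2 and Klre1 and the opposite sign for Klrk1 in both mice. In the Cd3-0 gate Klrk1 was instead seen more with Fcer1g, in 27.4% and 24.1% of cells with it (84 and 58 cells). It was seen in 3.45% and 9.09% of those without it (29 and 11 cells). The sign for Klrk1 differed between the mice in the Cd8b1 gate. Klrk1 is known to signal through Hcst and Tyrobp, and whether its adaptors bear on these shares was not tested.

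In the whole Trdc gate, with and without Cd8a, Klra5, Cd200r2 and Klre1 also coincided with each other, which did not hold for every receptor. Klrk1 was seen less often with Klra5 (0.403% and 1.43%) than without (2.71% and 2.06%). It was seen more often with Klre1 (5.15% and 2.69%) than without (1.90% and 1.85%). Among Trdc-gated cells with Klra5, Cd200r2 was seen in 31.5% and 39.3%, against 19.9% and 21.3% of cells without Klra5. Klre1 was seen in 20.6% and 20.4% of cells with Klra5 and in 8.53% and 10.0% of those without. Klrd1 was seen in 64.5% and 69.5% of cells with Klra5 and 59.1% and 69.3% without. At 2500 UMIs these Klrd1 shares were 79.6% and 83.2% with Klra5 and 70.5% and 78.8% without, so the size of the difference moved with depth. Klra5 is an inhibitory gene and Cd200r2 an activating one.

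In the Cd8b1 gate few cells had Fcer1g (34 in each mouse), but Klra5 was seen in 11.8% and 14.7% of them and in 0.690% and 0.417% of the others. Cd200r2 was seen in 17.6% and 26.5% with Fcer1g and in 0.230% and 4.17% without. In the Cd3-0 gate, Klrk1 was seen in 55.0% and 63.2% of cells with Klrd1 (20 and 19 cells) and in 13.98% and 6% of the others. Klrc1 was seen in 15.0% and 31.6% of those with Klrd1 and 3.23% and 2.00% of the others.

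**Figure D3:**
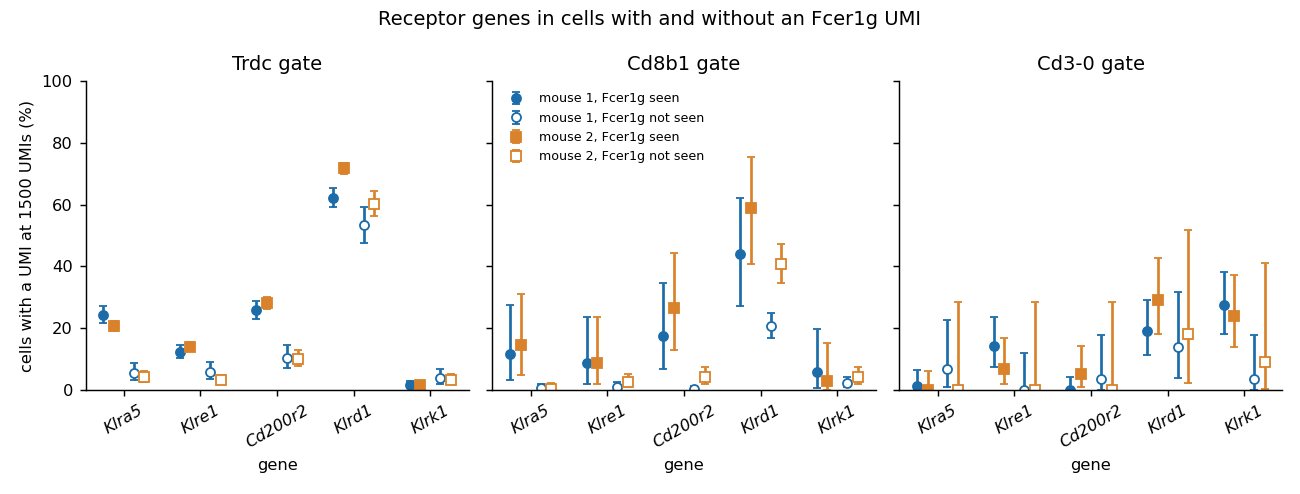
Share of cells with a UMI of 5 receptor genes after thinning to 1500 UMIs (percent), in cells with Fcer1g (filled) and without Fcer1g (open) of the Trdc, Cd8b1 and Cd3-0 gates, with circles for mouse 1, squares for mouse 2 and exact 95% binomial intervals. In the Trdc gate Klra5 is at 24.3% and 20.8% with Fcer1g and at 5.52% and 4.25% without it.

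Cells were then divided by whether they had UMIs of inhibitory (Klra5, Klrc1, Klrg1) or activating (Klrk1, Klrb1c, Cd200r2) genes at 1500 UMIs. Alone means that no UMI of the other kind was seen at this depth, and the classes were not made at another depth. The mean share of Trdc-gated cells with Cd200r2 was 37.4% without thinning and 23.3% at 1500 UMIs. In the Trdc gate 14.4% and 11.2% had inhibitory genes alone, 17.8% and 18.9% activating genes alone, and 6.43% and 7.15% both. In the Cd3-0 gate the shares were 6.19% and 7.25% for inhibitory alone, 20.4% and 18.8% for activating alone, and 3.54% and 7.25% for both. In the Trdc gate the members seen most in these classes were Klra5 and Cd200r2. In the Cd3-0 gate Klrk1 was seen in 21.2% and 21.7% of cells, Klrc1 in 5.31% and 10.1%, Klrb1c in 4.42% and 5.80% and Klrg1 in 2.65% and 4.35%. Neither kind was seen in 93.8% and 87.2% of Cd8b1-gated cells and in 97.0% and 84.6% of Cd4-gated cells. At least 3 of the 9 genes were seen in 28.9% and 31.4% of Trdc-gated cells, 14.2% and 20.3% of Cd3-0 cells, 1.28% and 4.38% of Cd8b1-gated cells, and 2.02% and 12.8% of Cd4-gated cells. Among Cd4-gated cells without Cd8a, 97.7% and 93.8% had neither kind, and 0 of 86 and 0 of 48 had 3 or more of the 9 genes (exact 95% upper bounds 4.20% and 7.40%).

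**Figure D4:**
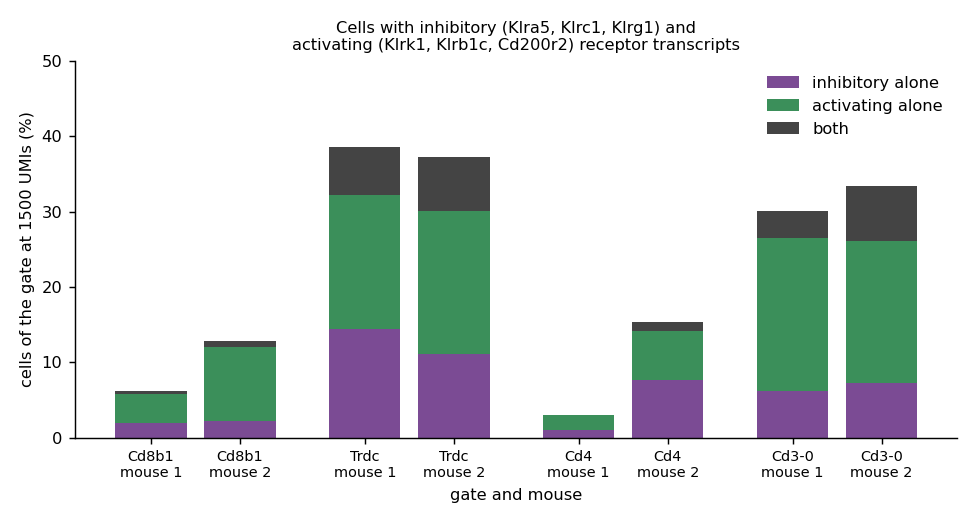
Share of cells (percent) with UMIs of inhibitory genes alone, activating genes alone or both after thinning to 1500 UMIs, as stacked bars from 0 for each gate and mouse, with cells of neither kind not drawn. Bars of the Trdc and Cd3-0 gates are higher than those of the Cd8b1 and Cd4 gates in both mice, and 6.43% and 7.15% of Trdc-gated cells had both kinds.

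Genes that work with these receptors were taken from a list of 42, of which 40 were counted and 31 tested. The list was chosen with earlier results of these data known. The calls and p-values of its genes in all 3 comparisons therefore describe these libraries and are no independent test. Between the Trdc and Cd8b1 gates 4 were called higher and 2 lower, beside 1.53% and 1.09% of all genes. With the mouse as a block 13 were called higher and 3 lower. Ptpn6, the phosphatase that inhibitory receptors recruit, was higher by 1.38 ± 0.22 (log2, SE, adjusted p = 0.0121, edgeR), at 238 and 233 CPM against 80.8 and 88.1. Klri1, a partner of Klre1, was higher by 2.05 ± 0.39 (adjusted p = 0.0315, edgeR). Lag3, an inhibitory receptor outside this family, was higher by 2.36 ± 0.28 (adjusted p = 0.00345, edgeR), and the phosphatase Ptpn11 by 1.01 ± 0.22 (adjusted p = 0.0469, edgeR). Lat, a scaffold of T-cell receptor signalling, and Cd226, an activating receptor, fell by 1.59 and 1.60 on the log2 scale. Tyrobp was at 863 and 641 CPM in the Trdc gate against 79.6 and 87.0 (log2 difference 3.08 ± 0.77, SE, adjusted p = 0.0739, edgeR), and Klri2 had an adjusted p of 0.0644. Both were among those called with the block. Hcst, the adaptor of Klrk1, was at 730 and 840 CPM against 730 and 801, with an adjusted p of 0.974 (edgeR). Klrc2 had an adjusted p of 0.597.

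Between the Cd8b1 and Cd4 gates, Slamf7 was called higher (2.15 ± 0.32, log2, SE, adjusted p = 0.0107, edgeR) and Pdcd1 (PD-1) lower (-3.62 ± 0.62, adjusted p = 0.0224, edgeR). These were 1 of 31 genes in each direction, and 4 higher and 2 lower with the block. Tyrobp, Hcst, Ptpn6, Klri1, Klri2 and Klrc2 had adjusted p-values of 0.320 to 0.959 there (edgeR).

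In the Cd3-0 gate 11 of the 31 genes were called higher and 6 lower than the mean of the T-cell gates, beside 12.8% and 6.88% of all genes, and 13 higher and 9 lower with the block. The 8 with the largest change were all higher. Of these, the receptor genes were at these levels in the Cd3-0 gate, Ncr1 at 105 and 130 CPM, Klrb1b at 18.0 and 21.1, Klrc2 at 13.5 and 66.8, Klra3 at 85.6 and 63.3, Klra7 at 58.5 and 49.3, Klrb1f at 85.6 and 63.3, and Pdcd1 at 40.5 and 49.3. Klrc2 did not exceed 12.6 CPM in any T-cell sum, so its Cd3-0 sum in mouse 1 lay close to that of the Cd8b1 gate. Syk, a kinase used by these adaptors, was at 37.5 and 49.3 CPM and did not exceed 7.24 CPM in any T-cell sum. Of the fixed partners, Tyrobp was higher by 1.90 ± 0.54 (log2, SE, adjusted p = 0.0349, edgeR) and Hcst fell by 1.00 (adjusted p = 0.00567, edgeR). Ptpn6, Klri1 and Klri2 had adjusted p-values of 0.753, 0.0769 and 0.104 (edgeR), and Klri1 and Klri2 were called with the block. Cells of this gate had by definition no Cd3 UMI. Ncr1 is also among the lymphoid markers that define the gate, as is a gene among the 6 called lower. Their levels are therefore not independent of the gate.

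Ligands were looked for in the same libraries. H2-T23 (Qa-1), the ligand of Klrd1 with Klrc1, was counted in every class, at 162 and 47.6 CPM in epithelial cells and 338 and 366 CPM in the Trdc gate. Cdh1 (E-cadherin), which Klrg1 binds, was at 42.6 and 77.0 CPM in epithelial cells, at 84.5 and 99.9 CPM in the Trdc gate and at 62.2 and 72.5 CPM in the Cd8b1 gate. Of the Klrk1 ligands, Raet1d, Raet1e, Ulbp1, H60b and H60c were each at 0.793 CPM or less in epithelial cells. Ulbp1 was at 8.06 and 11.7 CPM in the Trdc gate (37 and 107 UMIs) and at 2.32 and 4.41 CPM in macrophages. Clec2h was at 260 and 287 CPM in epithelial cells and at no more than 33.8 CPM in the other classes. Clec2d was at 316 and 363 CPM in the Trdc gate and 72.4 and 59.5 CPM in epithelial cells. Cd200, a ligand of the CD200 receptor family, was at 67.3 and 95.6 CPM in B cells and at 1.48 and 4.76 CPM in epithelial cells.

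The genes most like each receptor were ranked by Pearson correlation over 18 sums of disjoint classes (9602 genes), which share libraries and depth. For Klra5 these were Cd200r2 (r = 0.973), Gm156 (0.973) and Mcam (0.968). Klra5 and Cd200r2 were both chosen by their levels in lymphocyte classes of these libraries, so their correlation is not independent of that choice. For Cd200r2 they were Sept4, Klra5 and Stk32c, and for Klre1 Gm33104, Stk32c and Spry2. Fcer1g was closest to Fes (0.981), Tyrobp (0.952) and Gsap (0.952). Klrd1 was closest to Cd7, a gene that the Cd3-0 gate used, to Zap70 and to Prrt1, and Klrk1 to Ppt2, Ncoa7 and Pi4k2a. Klrc1, Klrb1c and Klrg1 had too few UMIs for the minimum of 100 asked of other genes, and their closest genes were Nrgn, Nrgn and Xlr4c.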

How the data were processed

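Single-cell RNA-sequencing was performed on the proximal small intestine of 2 APC mice, 1 library per mouse. Deposited were unnormalized UMI counts for each gene in each barcode, made by the authors with Cell Ranger 6.1.2 on mm10, and the annotation release was not stated. Barcodes were kept above 100 genes and 400 UMIs where mitochondrial UMIs made up under 5% and haemoglobin UMIs under 10%. All 4 gates left out cells with 2 or more UMIs of B-cell, myeloid, mast-cell or epithelial markers or with 20% or more immunoglobulin UMIs. Doublets were kept and no caller was run. The members, the gates and the partner, ligand and marker lists were chosen with earlier results of these data known.

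Counts were summed per mouse and gate, and 8 sums were fitted in edgeR 4.0.16 (R 4.3.3, TMM, filterByExpr, glmQLFit, glmQLFTest, two-sided), with Benjamini-Hochberg adjustment across every gene in the fit. Standard errors were log2 differences over the square root of F. The members' p-values are not printed, since the members were selected on these libraries. Sums with 1 replicate number come from 1 animal and are paired. Deviations of the 2 mice correlated between gates with r of 0.288 to 0.576. The block was an alternative, as were DESeq2 1.42.0, no filter, other gates and depths. The Cd4 gate without Cd8a was added after the data were seen.

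Shares of cells were taken without thinning where no depth is named. Shares at 1500 UMIs were taken after thinning in 1 random draw per library, so that nested gates share a draw. This replaced separate draws for each gate after values from those had been seen, and every thinned value given here is from the final draw. Intervals are exact (Clopper-Pearson or Poisson, 95%) and, like the limit of 3 counts for a value of 0, cover counting error only. The named genes were all 9 members, at most 8 called partners per comparison with the largest change, 6 fixed partners, 10 ligands and the 3 genes most alike. The fit was tested on simulated data for the Trdc and Cd8b1 gates (8454 genes, 5 draws of 200 changed genes). It recovered 41.9% of changes of 1 and 95.1% of changes of 2 on the log2 scale, and 4.93% of calls were false. The simulated sums were drawn independently, and only genes above a minimum mean count were changed. These rates therefore do not extend to paired sums or to genes with few counts.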

Additional observations from a re-analysis of the deposited data

Results flagged for a closer look

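UMIs of the 9 genes were also counted in barcodes that entered no comparison. Kept T cells with Cd3 UMIs but none of Cd8b1, Trdc or Cd4 (907 and 1642 cells) held 3178 of Klra5, 1334 of Klre1, 5899 of Klrd1, 97 of Klrk1, 59 of Klrc1, 6 of Klrb1c, 22 of Klrg1, 1575 of Cd200r2 and 13497 of Fcer1g UMIs. At 1500 UMIs, Klra5 was seen in 22.5% and 42.0% of these cells and Fcer1g in 73.2% and 84.2%. Mean levels over the 2 mice were higher in these cells than in the Trdc gate for Klra5 (424 against 238 CPM) and Klre1 (183 against 105 CPM). The mean of Klrd1 was lower (792 against 897 CPM). The Trdc gate is thus not the only T-cell group with high Klra5. Barcodes removed by the filters (1704 and 1843) held 691 of Klra5, 305 of Klre1, 1940 of Klrd1, 85 of Klrk1, 10 of Klrc1, 4 of Klrb1c, 7 of Klrg1, 523 of Cd200r2 and 3311 of Fcer1g UMIs. Each value was above the limit of 3 counts, and no control library was available for comparison.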

How the results depend on the processing

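The 221 genes called between the Trdc and Cd8b1 gates became 643 without a filter on low counts, 737 with the mouse as a replicate block, 11 with other lineages kept and 46 without cells with other T-cell receptor transcripts. The 112 called between the Cd8b1 and Cd4 gates became 169 with DESeq2, 374 without a filter, 307 with the replicate block, 3 with other lineages kept and 276 without Cd4-gated cells with Cd8a. The 1663 called for the Cd3-0 gate became 2822 with other lineages kept and 1088 without the top 5% of cells by UMIs. Log2 differences that changed sign, relative to the values in the main fit, were as follows. Without Cd4-gated cells with Cd8a, they were Klra5 8.68, Klre1 8.56 and Fcer1g 3.05 for the Cd8b1 against the Cd4 gate, where Klra5 and Klre1 had 0 UMIs and give no size. For the Cd3-0 gate they were Klra5 0.65, Klrd1 0.22 and Cd200r2 0.16. Klra5 and Cd200r2 had 0 UMIs in that Cd4 gate, which enters the T-cell mean, so their values give no size. With gate genes at 2 UMIs or more, Klre1 was 0.15 and Klrk1 -0.18 between the Cd8b1 and Cd4 gates. With other lineages kept, Klrg1 was 0.050 between the Trdc and Cd8b1 gates, and Klre1 -1.89 and Klrg1 -0.26 for the Cd3-0 gate. Without other T-cell receptor transcripts Klre1 was -3.75 for the Cd3-0 gate. The cause of these changes was not tested. In single mice, Klrb1c ranged from -1.56 to 0.24 between the Trdc and Cd8b1 gates, and Klre1 from -0.48 to 2.20 for the Cd3-0 gate. Between the Cd8b1 and Cd4 gates the single-mouse ranges were Klra5 -1.26 to 3.45, Klre1 -2.16 to 2.09, Klrk1 -0.035 to 1.06, Cd200r2 -0.064 to 1.92 and Fcer1g -1.46 to 1.12. Beside the block values in the text, the replicate block changed no other call of a member. Of 88 co-detection differences, 39 moved by less than the spread between mice at 2500 UMIs, 46 moved further and 3 changed sign, Klrc1 by Klrd1 in the Cd8b1 gate (-0.0030 points), Klrg1 by Cd200r2 (-0.18) and Klrc1 by Fcer1g (0.055) in the Trdc gate. The gate with the highest share was the same in 5 of 5 settings for 7 genes, in 4 for Klrg1 and in 2 for Fcer1g. The Cd4 gate held at most 100 cells a library, and the simulation did not cover it.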
